A study of Mus musculus with 12 samples.

Results

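The genes described here are the 10 genes of collagens IV, VIII, XV and XVIII, the collagens of basement membranes and vessel walls. They were chosen by symbol among 30389 genes measured in mouse muscle, and all 10 had a row in the table. Messenger RNA was sequenced in 12 libraries from 6 C57BL/6 animals. The 3 anomaly animals, called SBxVEC-Cre+, carried Cre recombinase under the promoter of VE-cadherin (VEC-Cre), an endothelial adhesion gene, with the SB Transposase and onc3, the transposon that this transposase moves. Vascular anomalies of their muscle supplied 6 libraries. The 3 normal animals carried SB Transposase and onc3 without Cre and gave 6 libraries of normal muscle. The libraries of an animal come as 2 pieces, numbered 1 and 2, except that anomaly animal 2 has 2 separate lesions instead, called its pieces here. Titles of 5 animals also letter the pieces A and B, and piece 1 is A in anomaly animals 1 and 3 but B in the normal animals. Animals, not libraries, served as replicates (n = 3 a group). The labels do not give ages.

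Basement membranes are thin sheets of matrix under endothelium, around pericytes and around each muscle fibre. Collagen IV forms their network. Its 6 genes lie as head-to-head pairs, and their chains assemble as trimers of Col4a1 with Col4a2, of Col4a3, Col4a4 and Col4a5 together, or of Col4a5 with Col4a6. Col4a1 and Col4a2 make the form found in nearly all vessels, whereas the other chains are best known from kidney, eye, ear and smooth muscle. Collagen VIII, made from Col8a1 and Col8a2, is a short-chain collagen of vessel walls and of the corneal membrane. Collagens XV and XVIII (Col15a1, Col18a1) are related to each other, carry heparan or chondroitin sulphate chains, and hold at their C-terminal ends the fragments restin and endostatin, known for effects on vessel growth.

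The promoters of 2 head-to-head pairs are shown because the genes of the first pair rose together while those of the second were not called or too low to test. The sequences are RefSeq's for GRCm38.p6, 250 bases before to 50 bases after each start, 5′ to 3′ on the gene's own strand. They lie at chr8:11312777-11313076 on the minus strand (Col4a1), chr8:11312555-11312854 on the plus strand (Col4a2), chrX:141475169-141475468 on the plus strand (Col4a5) and chrX:141474027-141474326 on the minus strand (Col4a6). Capitals mark the GC box (GGGCGG or CCGCCC) and the CCAAT box (CCAAT or ATTGG), searched on both strands.
Col4a1: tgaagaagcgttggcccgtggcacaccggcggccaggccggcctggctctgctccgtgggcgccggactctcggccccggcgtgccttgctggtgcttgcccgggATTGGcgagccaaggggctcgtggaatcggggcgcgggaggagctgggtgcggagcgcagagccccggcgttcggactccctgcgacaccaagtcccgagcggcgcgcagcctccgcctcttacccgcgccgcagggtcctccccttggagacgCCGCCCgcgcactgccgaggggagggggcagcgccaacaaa
Col4a2: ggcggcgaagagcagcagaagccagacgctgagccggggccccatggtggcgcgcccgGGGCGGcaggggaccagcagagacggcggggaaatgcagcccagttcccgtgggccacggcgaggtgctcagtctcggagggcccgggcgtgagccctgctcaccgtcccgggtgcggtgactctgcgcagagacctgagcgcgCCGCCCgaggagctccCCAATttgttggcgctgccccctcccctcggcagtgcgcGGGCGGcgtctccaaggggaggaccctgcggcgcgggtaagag
Col4a5: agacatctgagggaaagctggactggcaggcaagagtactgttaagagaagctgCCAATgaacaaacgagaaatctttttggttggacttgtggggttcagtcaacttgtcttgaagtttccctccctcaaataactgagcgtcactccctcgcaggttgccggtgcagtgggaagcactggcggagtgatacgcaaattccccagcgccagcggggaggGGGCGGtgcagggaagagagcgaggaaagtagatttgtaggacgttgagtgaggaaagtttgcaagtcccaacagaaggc
Col4a6: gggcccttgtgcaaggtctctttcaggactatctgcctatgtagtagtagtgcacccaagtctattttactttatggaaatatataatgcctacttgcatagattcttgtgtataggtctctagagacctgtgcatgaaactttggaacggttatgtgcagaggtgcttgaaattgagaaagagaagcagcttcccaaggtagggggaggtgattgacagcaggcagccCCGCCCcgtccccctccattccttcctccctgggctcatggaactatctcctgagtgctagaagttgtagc
The starts of Col4a1 and Col4a2 lay 21 bases apart and those of Col4a5 and Col4a6 lay 1343 bases apart. The windows of Col4a1 and Col4a2 therefore overlap and share some motif matches. They held 74.0% and 73.7% G and C, against 52.7% in that of Col4a5, 48.3% in that of Col4a6 and a median of 52.7% over 32851 promoters. A GC box stood in the windows of 7 of the 9 members with a promoter sequence and in 35.7% of all promoters, and a CCAAT box in those of 4 members and in 37.4% of all promoters. No TATA box (TATAAA or TTTATA) was in any member's window, against 13.6% of all promoters. The ETS core (CCGGAA or TTCCGG), searched in the same way, was also in none, against 14.9% of all promoters. The 9 members have 10 windows, 2 of them for Col18a1, and a member counted if any of its windows held the motif. With 9 members, presence or absence of a motif at such shares allows no conclusion.

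Anomaly libraries held between 254404 and 18476461 recovered reads, and normal libraries between 17380211 and 32155879. Piece 1 of anomaly animal 1 stood apart. It had 254404 reads where the other 11 libraries had at least 9650550, its single read weighed 1.85 CPM, the authors' scaled counts-per-million unit, against at most 0.0719 elsewhere, and 7573 genes were listed at exactly 1 read against 2356 to 3103 elsewhere. Marker lists checked the tissue, where higher and lower mean an adjusted p under 0.05 in limma's fit, described below. Of all tested genes 32.4% were higher and 31.0% lower. Of 14 endothelial markers, 12 were higher in anomaly tissue, with a summed level of 2459 to 9678 CPM across anomaly libraries, against 508 to 794 across normal ones. Of 11 muscle fibre markers 9 were lower, with sums of 257 to 43528 CPM across anomaly libraries, against 316639 to 383502 across normal ones. Of 10 mural markers 7 were higher and Des, which muscle fibres also express, was lower. The mural sum was 1082 to 4826 CPM across anomaly libraries, against 5318 to 7538 across normal ones, most of the normal sum being Des, and without Des, left out after the data were seen, it was 1028 to 2743 CPM across anomaly libraries, against 263 to 611 across normal ones. Of 10 macrophage markers 9 were higher, with sums of 608 to 2885 CPM across anomaly libraries, against 44.2 to 260.0 across normal ones. Of 9 tested fibroblast markers Thy1 and Mfap5 were higher and Clec3b lower, with sums of 148 to 552 CPM across anomaly libraries, against 118 to 578 across normal ones. Among these lists only Tcf21, a fibroblast marker, was at 0 in a whole group, the normal one. In bulk tissue, fewer cells of a type and less RNA per cell cannot be told apart.

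Anomaly tissue held 21.7 to 113 times the normal mean CPM of Col4a1, Col4a2, Col8a1, Col15a1 and Col18a1, chains of vascular basement membranes and vessel walls. Col8a2, also a vessel wall chain, stood at 12.3 times but was not called (adjusted p = 0.0534 by limma). The scarce chains Col4a3, Col4a4, Col4a5 and Col4a6 averaged under 5 CPM in both tissues and overlapped between them. Differences are anomaly minus normal in log2(CPM + 1), averaged per animal, with the standard error of limma's fit and p-values adjusted over 14687 genes. Of the 10 members, 9 reached a group mean of 1 CPM and were tested. Of these, 5 were higher, 0 lower and 4 not called at an adjusted p under 0.05, where 32.4% of all tested genes were higher and 31.0% lower, together 63.4%. These are 4765 genes higher and 4553 lower, against 8353 and 1895 when scaled by library totals alone and 3748 and 5904 with trimmed mean scaling on all reads. By limma no member was lower at an unadjusted p under 0.05 either, and voom on summed reads also called 0 lower. The members tested had a median difference of 4.11 and all tested genes one of 0.09. In the 5 higher members no anomaly library overlapped a normal library, which was so for 28.8% of all tested genes in that direction and for 27.6% in the other. The 5 calls held under all 20 other settings tried.

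**Figure D1:**
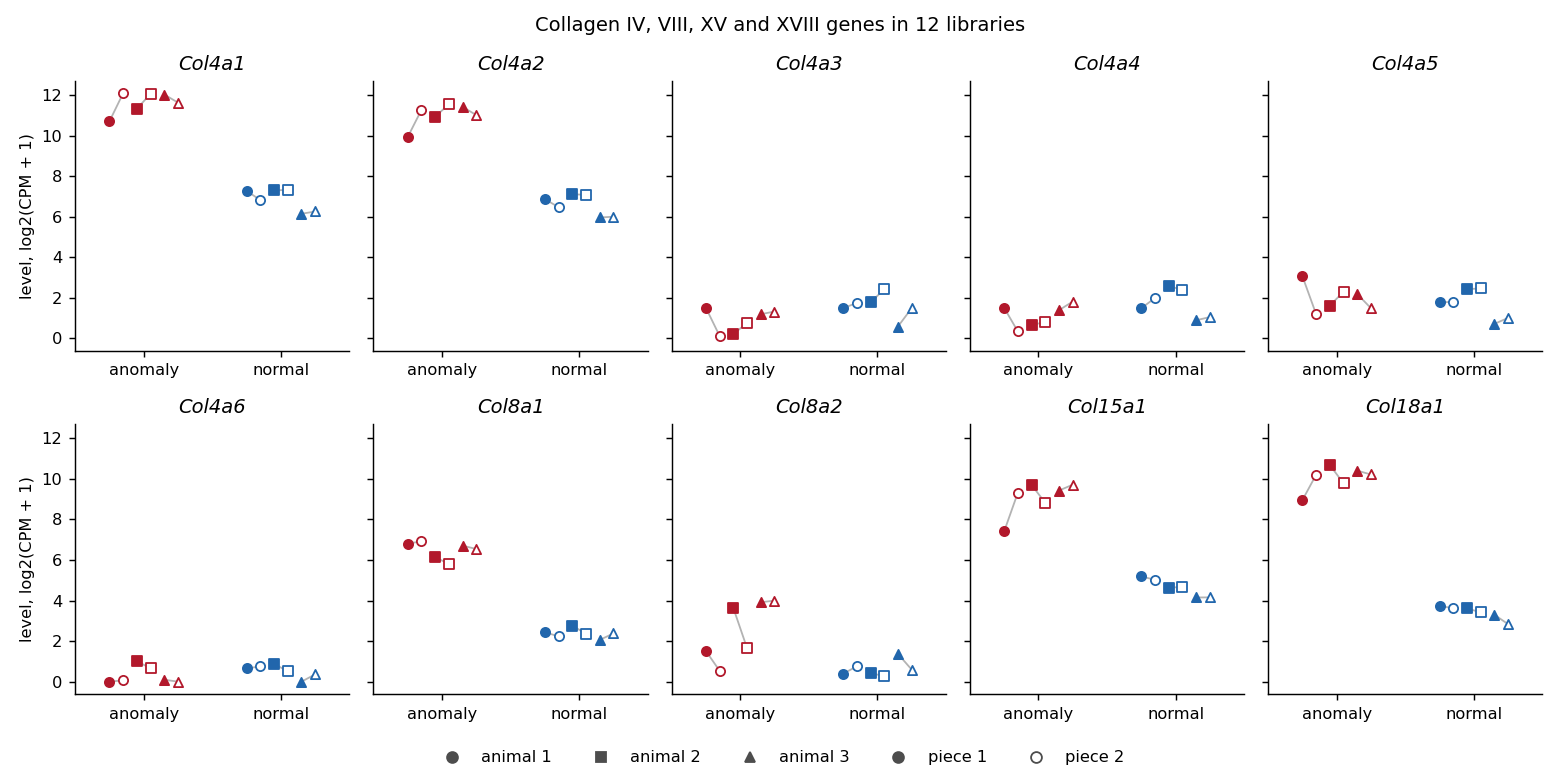
Level of each of the 10 genes in log2(CPM + 1) in every library, anomaly left and normal muscle right. Circles, squares and triangles are animals 1, 2 and 3, filled for piece 1 and open for piece 2, and a line joins the pieces of an animal. Col4a1, Col4a2, Col8a1, Col15a1 and Col18a1 separate the groups fully, and the other 5 genes overlap between libraries.

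Col4a1 encodes the chain that supplies most of the vascular collagen IV trimer (ENSMUSG00000031502, protein coding, GRCm38 chromosome 8, 11198423 to 11312826). It had 1666 and 4358 CPM in the pieces of anomaly animal 1, 2554 and 4303 in those of animal 2, 4177 and 3167 in those of animal 3, against 154 and 112 CPM in the pieces of normal animal 1, 156 and 160 in those of animal 2, 69.9 and 75.7 in those of animal 3. The lowest anomaly library, the shallow one, was more than 10 times the highest normal library. Col4a1 rose by 4.78 ± 0.40 (adjusted p = 3.04e-04), at 3371 ± 334 CPM in anomaly and 121 ± 43.8 CPM in normal animals (SD, n = 3). Per kb of exon it ranked from 12 to 43 among 30294 genes in the anomaly libraries, against ranks of 1742 to 3487 in the normal ones.

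Col4a2, its partner chain (ENSMUSG00000031503, protein coding, chromosome 8, 11312805 to 11449287), had 971 and 2456 CPM in the pieces of anomaly animal 1, 1954 and 2990 in those of animal 2, 2743 and 2071 in those of animal 3, against 116 and 87.8 CPM in the pieces of normal animal 1, 137 and 135 in those of animal 2, 61.5 and 63.1 in those of animal 3. Pieces high in Col4a1 were high in Col4a2 in every anomaly animal. Col4a2 rose by 4.43 ± 0.39 (adjusted p = 3.49e-04), at 2197 ± 421 CPM in anomaly and 100.1 ± 36.9 CPM in normal animals (SD, n = 3). Annotated Col4a1 and Col4a2 overlap by 22 bases, and the kit does not mark strand, so reads inside that overlap cannot be assigned to either gene.

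Col18a1, the source of endostatin (ENSMUSG00000001435, protein coding, chromosome 10, 77052178 to 77166548), had the largest difference of the members. It had 493 and 1176 CPM in the pieces of anomaly animal 1, 1643 and 878 in those of animal 2, 1354 and 1188 in those of animal 3, against 12.4 and 11.2 CPM in the pieces of normal animal 1, 11.2 and 9.69 in those of animal 2, 8.85 and 6.12 in those of animal 3. Every anomaly library lay far above every normal one. The rise was 6.62 ± 0.27 (adjusted p = 1.05e-04), a ratio of 113 between the mean CPM of 3 anomaly and 3 normal animals, and it ranked 3 among 14687 tested genes by size of rise. RefSeq gives Col18a1 2 promoters, with starts at 77166530 and 77113705, and gene-level values do not tell which was used.

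Col15a1, the related collagen that links basement membranes to the surrounding matrix (ENSMUSG00000028339, protein coding, chromosome 4, 47208161 to 47313167), had 169 and 637 CPM in the pieces of anomaly animal 1, 833 and 449 in those of animal 2, 686 and 838 in those of animal 3, against 35.4 and 31.5 CPM in the pieces of normal animal 1, 23.7 and 24.6 in those of animal 2, 16.8 and 16.8 in those of animal 3. The shallow library was the lowest of the anomaly libraries for Col15a1, as for Col4a1, Col4a2 and Col18a1. Col15a1 rose by 4.43 ± 0.39 (adjusted p = 3.50e-04), at 602 ± 183 CPM in anomaly and 24.8 ± 8.36 CPM in normal animals (SD, n = 3).

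Col8a1, a chain of collagen VIII (ENSMUSG00000068196, protein coding, chromosome 16, 57624258 to 57754737), had 111 and 120 CPM in the pieces of anomaly animal 1, 69.2 and 55.2 in those of animal 2, 103 and 92.3 in those of animal 3, against 4.44 and 3.69 CPM in the pieces of normal animal 1, 5.78 and 4.15 in those of animal 2, 3.16 and 4.19 in those of animal 3. Its pieces lay close together, and the shallow library was not low for it. Col8a1 rose by 4.11 ± 0.26 (adjusted p = 1.59e-04), at 91.8 ± 27.1 CPM in anomaly and 4.24 ± 0.66 CPM in normal animals (SD, n = 3).

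Col8a2, the other chain of collagen VIII (ENSMUSG00000056174, protein coding, chromosome 4, 126286793 to 126314330), varied most among anomaly animals. It had 1.85 and 0.45 CPM in the pieces of anomaly animal 1, 11.4 and 2.15 in those of animal 2, 14.1 and 15.0 in those of animal 3, against 0.31 and 0.69 CPM in the pieces of normal animal 1, 0.33 and 0.21 in those of animal 2, 1.58 and 0.51 in those of animal 3. Piece 2 of anomaly animal 1 lay among the normal libraries, and the pieces of that animal held 1 and 10 reads. The difference was 1.91 ± 0.71 and was not called (adjusted p = 0.0534). It was called in 6 of 20 other settings, among them without anomaly animal 1, at 2.67 (adjusted p = 0.00438), and with library totals alone, at 2.61 (adjusted p = 0.0181). Without anomaly animal 3 it was 1.2 (adjusted p = 0.0826), and with a pseudocount of 5 it was 0.96 (adjusted p = 0.0749). Adjusted p ran from 0.00438 to 0.159 over the 20.

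The remaining collagen IV chains were scarce. Col4a5 (ENSMUSG00000031274, protein coding, chromosome X, 141475385 to 141689234) had 7.41 and 1.30 CPM in the pieces of anomaly animal 1, 2.07 and 3.95 in those of animal 2, 3.56 and 1.81 in those of animal 3, against 2.43 and 2.50 CPM in the pieces of normal animal 1, 4.40 and 4.53 in those of animal 2, 0.65 and 1.02 in those of animal 3. The groups overlapped widely, and the highest value rests on 4 reads of the shallow library. Its difference of 0.28 ± 0.41 was not called (adjusted p = 0.567). Its sign was not stable, at -0.03 without that library (adjusted p = 0.950) and -0.14 without normal animal 3 (adjusted p = 0.713). With library totals alone it was 1.13 and was called (adjusted p = 0.0415), where the median of all genes moved to 1.07.

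Col4a3 and Col4a4, whose chains join Col4a5 in the filtration barrier of the kidney, both stood below their normal means. Col4a3 (ENSMUSG00000079465, protein coding, chromosome 1, 82586921 to 82722059) had 1.85 and 0.090 CPM in the pieces of anomaly animal 1, 0.16 and 0.70 in those of animal 2, 1.29 and 1.51 in those of animal 3, against 1.81 and 2.37 CPM in the pieces of normal animal 1, 2.43 and 4.37 in those of animal 2, 0.50 and 1.81 in those of animal 3. Anomaly animals averaged 0.933 ± 0.486 CPM and normal animals 2.22 ± 1.12 CPM (SD, n = 3). The groups overlapped, and the difference of -0.73 ± 0.35 missed the threshold (adjusted p = 0.105). It passed by piece 2 alone, at -1.15 (adjusted p = 0.0468), and with trimmed mean scaling on all reads, at -0.99 (adjusted p = 0.0485), but was -0.31 by piece 1 alone (adjusted p = 0.583) and -0.12 with library totals alone (adjusted p = 0.781). The value of 1.85 CPM rests on 1 read of the shallow library, which also enters the fit by piece 1 alone. Without that library the difference was -0.96 (adjusted p = 0.0720). Adjusted p ran from 0.0468 to 0.781 over 19 other settings.

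Col4a4 (ENSMUSG00000067158, protein coding, chromosome 1, 82448423 to 82586849) ranged over libraries from 0.270 to 2.53 CPM in anomaly tissue and from 0.863 to 4.94 CPM in normal muscle. These ranges overlapped, and the difference of -0.65 ± 0.44 was not called (adjusted p = 0.233). With library totals alone it was 0.04, so its sign depends on the scaling. Col4a6 (ENSMUSG00000031273, protein coding, chromosome X, 141165403 to 141474076), named by its identifier since the table gives no symbol, had a mean below 1 CPM in both groups and was not tested. It had 32 reads over all anomaly libraries, of which 29 lay in the lesions of animal 2, against 55 reads over all normal libraries. In 2 anomaly libraries and 1 normal library it had 0 reads, which allows up to 5.56 CPM in piece 1 of anomaly animal 1, 0.113 in piece 2 of anomaly animal 3 and 0.216 in piece 1 of normal animal 3. These limits, of 3 reads a library, cover counting error only.

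**Figure D2:**
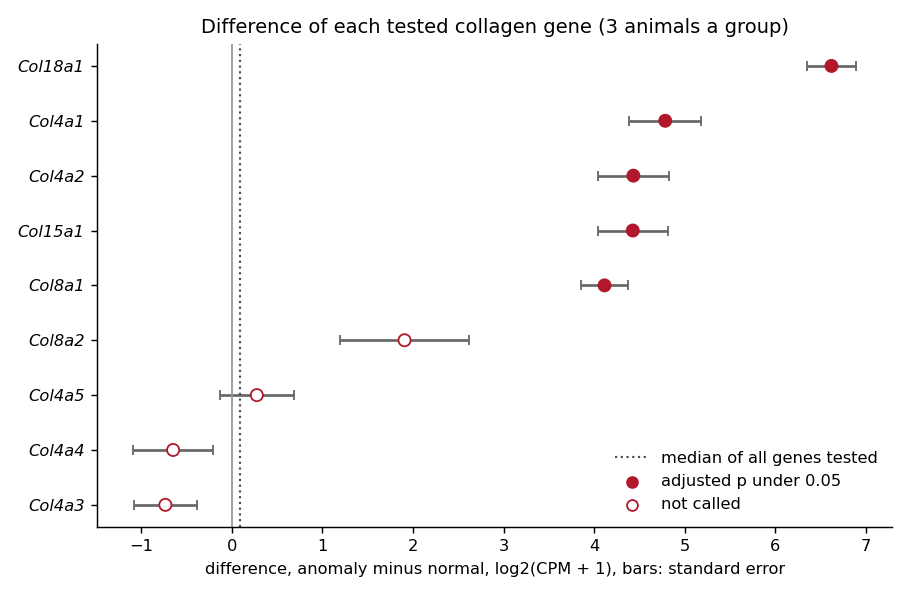
Difference between vascular anomaly and normal muscle in log2(CPM + 1) for the 9 tested genes, with the standard error (3 animals a group). Filled points passed an adjusted p under 0.05, and the dotted line is the median of all tested genes, 0.09. Col18a1 lies at 6.62, 4 genes lie between 4.11 and 4.78, and the others lie between -0.73 and 1.91.

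Per kb of exon, the order of the members was led by Col4a1 in both tissues, and Col18a1 stood ahead of Col15a1 in anomaly tissue and behind it in normal muscle. In anomaly animals Col4a1 averaged 452 ± 44.7, Col4a2 332 ± 63.5, Col18a1 160 ± 35.5, Col15a1 94.8 ± 28.8 and Col8a1 11.7 ± 3.46 CPM per kb (SD, n = 3). Among these neighbours only the animals of Col18a1 and Col15a1 overlapped in range. In normal animals Col4a1 averaged 16.3 ± 5.87, Col4a2 15.1 ± 5.57, Col15a1 3.91 ± 1.32, Col18a1 1.41 ± 0.32 and Col8a1 0.54 ± 0.084 CPM per kb (SD, n = 3). There Col4a1 and Col4a2 overlapped, and so did all neighbours from Col8a1 down to Col4a6. The other 5 members held at most 1.67 CPM per kb on average in either group.

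**Figure D3:**
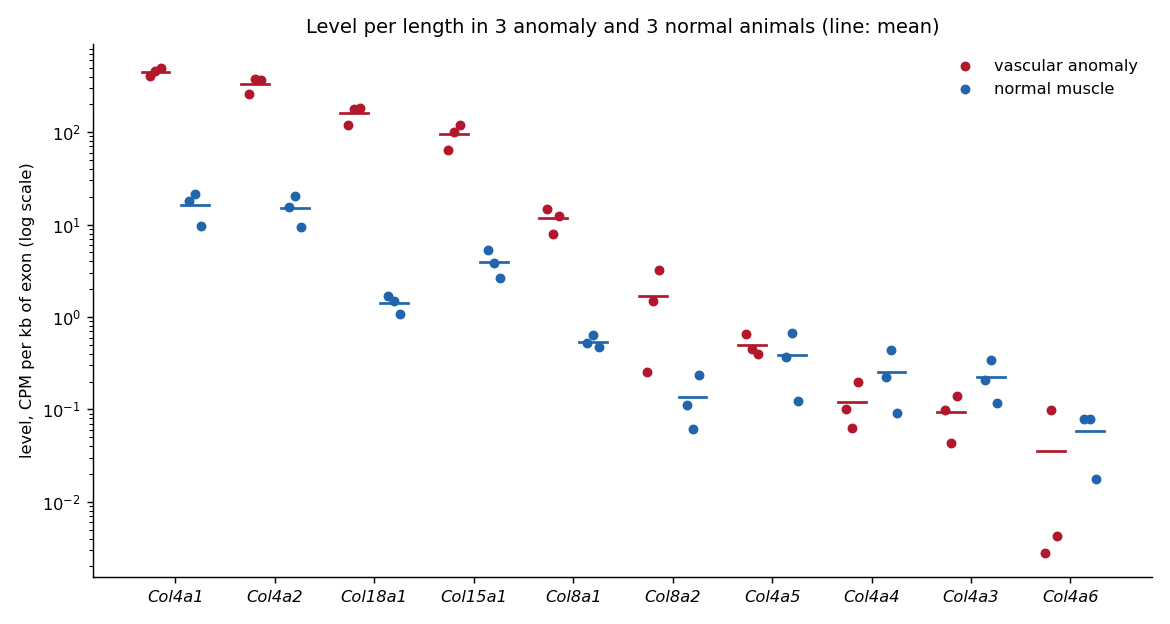
Level per kb of exon on a log axis, in 3 vascular anomaly animals (left of each pair) and 3 normal animals (right of each pair), with lines at the means. Col4a1 averages 452 in anomaly and 16.3 in normal animals, and Col4a3, Col4a4, Col4a5 and Col4a6 average under 1 in both groups.

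Shares of the summed level per kb were taken within each animal. Col4a1 and Col4a2 made up 99.9% ± 0.073 of the level of the 6 collagen IV genes in anomaly animals and 97.3% ± 0.87 in normal animals (SD, n = 3), with no overlap. Col18a1 made up 15.4% ± 1.3 of the level of the 10 members in anomaly animals and 3.86% ± 0.75 in normal animals. The 10 members together held 48.4%, 53.9% and 71.7% of the level of 43 collagen genes in anomaly animals 1, 2 and 3, against 32.4%, 34.6% and 42.6% in normal animals 1, 2 and 3. These animals did not overlap, although single libraries did, from 39.4% to 71.8% in anomaly tissue and from 30.5% to 43.0% in normal muscle. No test was made on these shares.

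Ratios between chains of one trimer or of related collagens were taken within each library on the CPM + 1 scale. Col4a5 with Col4a1 and Col15a1 with Col18a1 are related but share no trimer. Ratios of common genes depend little on how a library was scaled. Those with the scarce Col4a3, Col4a4, Col4a5, Col4a6 or Col8a2 also depend on the added 1. Of 6 log2 ratios, 4 did not overlap between anomaly and normal animals. Each was at the smallest exact permutation p this design allows, 0.1 two-sided (adjusted p = 0.15 over 6 ratios). The share without overlap among other gene pairs was not computed. A ratio differs between groups by the gap between the differences of its 2 genes. The ratios therefore restate the differences above and are no separate support for them. Col15a1 to Col18a1 was -1.21, -0.97 and -0.74 in anomaly animals 1, 2 and 3, against 1.43, 1.14 and 1.09 in normal animals 1, 2 and 3. It changed sign between the tissues, by -2.19. Col4a5 to Col4a1 differed by -4.51, at a mean of -9.66 ± 0.37 in anomaly and -5.15 ± 0.25 in normal animals (SD, n = 3). That difference was -5.05 without piece 1 of anomaly animal 1, where Col4a5 had 4 reads. It was -3.79 by piece 1 alone and -5.22 by piece 2 alone.

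Col4a2 to Col4a1 was slightly lower in anomaly tissue, at -0.80, -0.46 and -0.61 in animals 1, 2 and 3, against -0.38, -0.22 and -0.22 in normal animals 1, 2 and 3. The difference of -0.35 was small beside the rise of either gene. Col8a2 to Col8a1 averaged -3.95 ± 1.67 in anomaly and -1.74 ± 0.49 in normal animals, and without anomaly animal 1, at -5.84, the difference was -1.26 in place of -2.21. Col4a4 to Col4a3, at 0.23 ± 0.12 in anomaly and 0.15 ± 0.23 in normal animals, overlapped (exact permutation p = 0.7), and so did Col4a6 to Col4a5, at -1.68 ± 0.50 in anomaly and -1.18 ± 0.54 in normal animals (exact permutation p = 0.2; SD, n = 3 for each).

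**Figure D4:**
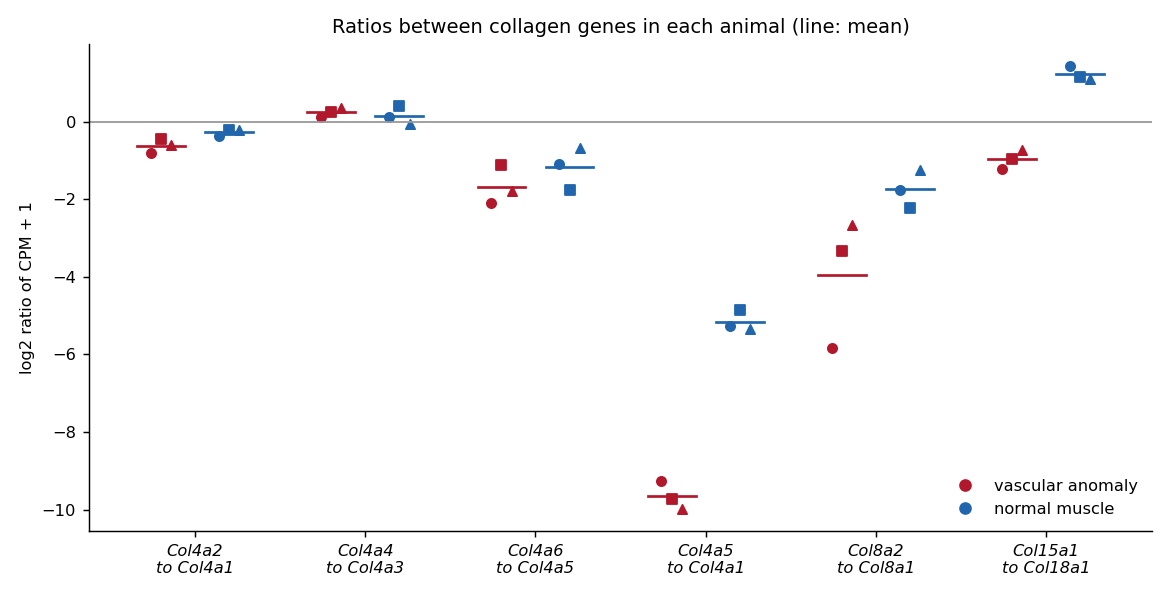
Log2 ratio of CPM + 1 between 2 collagen genes in each animal, vascular anomaly left and normal muscle right of each pair; circles, squares and triangles are animals 1, 2 and 3 and lines are means. Col15a1 to Col18a1 lies below 0 in all 3 anomaly animals and above 0 in all 3 normal animals.

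Levels were also set against the mean of the 14 endothelial markers in each animal, a comparison chosen after the values were seen and given without a test. That mean was 7.58, 8.56 and 9.0 log2(CPM + 1) in anomaly animals 1, 2 and 3, against 5.38, 5.53 and 5.07 in normal animals 1, 2 and 3. Relative to it Col18a1 stood at 1.66 ± 0.34 in anomaly animals and at -1.90 ± 0.18 in normal animals (SD, n = 3). Relative to that mean the anomaly animals were higher by 1.73 for Col4a1, 1.38 for Col4a2, 1.37 for Col15a1 and 1.06 for Col8a1. They differed by -1.15 for Col8a2, -2.78 for Col4a5, -3.28 for Col4a6, -3.70 for Col4a4 and -3.79 for Col4a3. The marker mean was itself higher in anomaly animals, so a gene with little change of its own is lower relative to it. These negative values are therefore no finding about those genes. Single endothelial markers differed between the groups by 1.08 (Ptprb) to 4.51 (Cldn5). Only Col4a1, at 4.78, and Col18a1, at 6.62, rose by more than Cldn5. The rises of Col4a2, Col8a1 and Col15a1 lie within the spread of single markers. Mean levels of mural markers, Des included, were 6.01, 6.06 and 6.84 in anomaly animals 1, 2 and 3, against 5.20, 5.06 and 4.72 in normal animals 1, 2 and 3. Without Des, which muscle fibres also express, they were 5.97, 6.19 and 6.40 in anomaly animals, against 4.41, 4.21 and 3.84 in normal animals. The part of either cell type in the results was not tested.

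**Figure D5:**
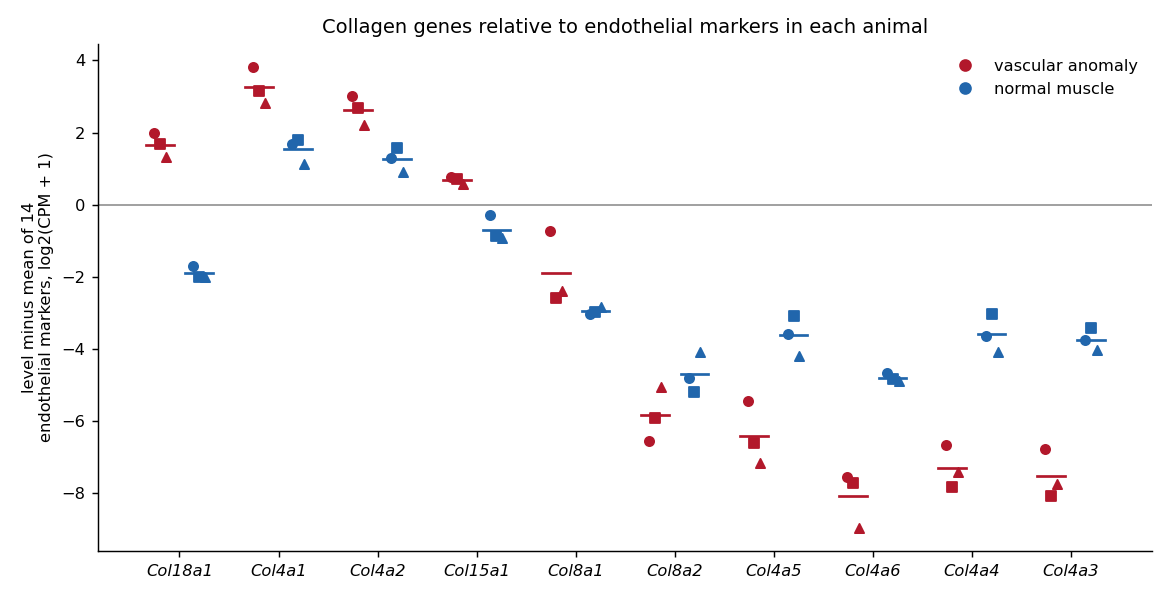
Level of each gene minus the mean of 14 endothelial markers, in log2(CPM + 1), in vascular anomaly (left) and normal (right) animals; circles, squares and triangles are animals 1, 2 and 3. Col18a1 lies above the markers in all anomaly animals and below them in all normal animals. Col4a3, Col4a4, Col4a5 and Col4a6 lie lower relative to the markers in anomaly animals, where the markers themselves were higher.

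Animals within a group also differed. Among anomaly animals, limma's F test on the libraries called 1 of 9 tested members, Col8a2 (range of animal means 2.93 log2 units, adjusted p = 0.0486), where 12.8% of all tested genes were called. Without piece 1 of anomaly animal 1, limma called 0 of 14687 genes (0.0%), and 4473 genes, 4 of them members, had an unadjusted p under 0.05. The members were Col4a3, Col4a4, Col8a1 and Col8a2, named after their values were seen. Pieces of anomaly animal 1, which holds the shallow library, differed (piece 2 minus piece 1) by 1.39 log2 units for Col4a1, 1.34 for Col4a2, 1.91 for Col15a1, 1.25 for Col18a1 and 0.11 for Col8a1. In the other anomaly animals the widest gap of any member was -1.98, for Col8a2 between the lesions of animal 2, and there Col15a1 and Col18a1 differed by -0.89 and -0.90.

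Among normal animals, a test added after the values were seen called 5 of 9 members, where 9.91% of all tested genes were called. These were Col4a1, Col4a2, Col4a4, Col4a5 and Col15a1, with ranges of animal means from 0.95 to 1.58 log2 units and adjusted p from 0.0102 to 0.0237 by limma's F test. Normal animal 3 was lowest in each of the 5. Its fibroblast markers averaged 2.88 log2(CPM + 1), against 4.30 and 4.31 in normal animals 1 and 2, and its endothelial, mural and macrophage markers were also the lowest of the normal animals, at 5.07, 4.72 and 2.46. It was not the lowest for muscle fibre, Schwann or adipocyte markers, at 13.55, 3.54 and 4.39, and was the highest for epithelial markers, at 0.59. The part of any of these cell types in the difference was not tested. The error of this test is that between the pieces of an animal.

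The 5 genes most like the mean of Col4a1 and Col4a2 across the 12 libraries, after the group means were subtracted, were Fam168b, Tnfrsf21, Stab1, Pdgfrb and Mtss1 (Pearson r from 0.92 to 0.94 over 12 libraries, among 4155 genes with a mean of at least 5 log2 units). Pdgfrb encodes the receptor that marks pericytes and Stab1 a scavenger receptor of macrophages and some endothelium. Among the other members, r over 12 libraries was 0.65 for Col15a1, 0.63 for Col18a1, 0.40 for Col4a6, 0.28 for Col4a4, 0.19 for Col4a5, 0.14 for Col4a3, 0.04 for Col8a1 and -0.10 for Col8a2. Without piece 1 of anomaly animal 1 the order changed. Over those 11 libraries r was 0.85 for Col4a5, 0.57 for Col4a4, 0.56 for Col4a3, 0.35 for Col8a1, 0.29 for Col4a6, 0.27 for Col15a1, 0.26 for Col18a1 and -0.43 for Col8a2. The 5 genes named first were picked with that library included. Over the 11 libraries their r was 0.94 for Tnfrsf21, 0.90 for Fam168b, 0.88 for Stab1, 0.87 for Pdgfrb and 0.86 for Mtss1. The points share libraries and depth, and pieces share animals.

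Genes that work with these collagens were followed in fixed lists, each read against 32.4% of all tested genes higher, 31.0% lower and a median of 0.09. Of 17 tested basement membrane partners, 9 were higher, 3 lower and 5 not called, with a median difference of 1.60. Sparc, a collagen-binding matrix protein, rose by 4.73 ± 0.41, the linker nidogen Nid2 by 4.76 ± 0.45, and the laminin chains Lama4 and Lamb1, of vascular basement membranes, by 3.65 ± 0.35 and 3.99 ± 0.48 (adjusted p from 3.46e-04 to 9.28e-04 by limma). The lower partners were Lamb2, Lamb3 and Smoc2, named after their values were seen.

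Of 21 tested genes that fold, modify or crosslink collagen, 14 were higher, 1 lower and 6 not called, with a median of 1.68. Pxdn, the peroxidase that forms the sulfilimine crosslinks of collagen IV, rose by 4.49 ± 0.23 (adjusted p = 1.11e-04 by limma), to 456 ± 24.1 CPM in anomaly animals, against 19.7 ± 5.83 CPM in normal animals (SD, n = 3). Serpinh1, a collagen chaperone, rose by 3.45 ± 0.34, and Ppib and Crtap, of the prolyl 3-hydroxylase complex, by 2.54 ± 0.16 and 3.05 ± 0.20. The lower gene, named after its value was seen, was Mia3, which loads large collagens for export from the endoplasmic reticulum, at -1.25 ± 0.15.

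Of 13 tested collagen receptors, 8 were higher and 5 not called, with a median of 2.28. Itga1 and Itga2, integrin chains that bind collagens, rose by 2.28 ± 0.22 and 3.93 ± 0.22, Itga5, a fibronectin receptor chain, by 4.66 ± 0.39, and Lair1, an inhibitory collagen receptor of leukocytes, by 3.57 ± 0.32. Of 15 tested proteases and inhibitors, 8 were higher, 1 lower and 6 not called, with a median of 1.56. The proteases Ctsk, Mmp13, Ctss and Mmp14 rose by 2.97 ± 0.35, 3.68 ± 0.47, 4.95 ± 0.65 and 4.36 ± 0.58. The lower gene, named after its value was seen, was the inhibitor Timp4, at -3.08 ± 0.44.

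Of 21 tested fibrillar and fibril-associated collagens, 14 were higher, 4 lower and 3 not called, with a median of 2.68. Col12a1, which coats collagen fibrils, rose by 5.36 ± 0.37, Col16a1 by 3.63 ± 0.39, and the collagen V chains Col5a2 and Col5a1 by 4.32 ± 0.50 and 3.76 ± 0.58 (adjusted p from 1.97e-04 to 0.00221 by limma). The lower genes, named after their values were seen, were Col19a1, Col24a1, Col11a2 and Col6a6. No test of the difference between these genes and the collagens of basement membranes was made.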

How the data were processed

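Per the labels' protocols, RNA of snap-frozen tissue was extracted by Qiagen RNeasy, and TruSeq poly-A libraries without strand information were built. STAR and limma were used with mm10 (GRCm38), per the submitters' processing notes; versions are not given in the sources used here. The authors deposited 1 table of log2 CPM values for 30389 Ensembl genes, with a common floor of -6.707. Once the floor was removed, each library's values were steps of equal size (100% whole within 0.01), and a step was taken as 1 read. The size behind each library was 1.43 to 2.12 times its reads in anomaly and 0.712 to 0.800 times in normal libraries. Exon lengths and coordinates came from GENCODE M21 (GRCm38), which holds 30294 of the identifiers.

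Each animal's value was the mean log2(CPM + 1) of its 2 libraries. Genes reaching a group mean of 1 CPM (14687) entered limma 3.58.1 with a trend, under R 4.3.3, with Benjamini-Hochberg adjustment at 0.05. Simulated reads had 200 changed genes among 14687, a coefficient of variation of 0.2 between animals, and counting error alone between pieces. The fit recovered 50% of changes of 2-fold and 94% of those of 4-fold. In the data 63.4% of tested genes were called. The members not called also varied more between animals, as Col4a3 did at 2.22 ± 1.12 CPM in normal animals (SD, n = 3). The shares recovered therefore do not hold for those members. Named genes were the 10 members, up to 4 genes of smallest p in each list, and the 5 genes of closest pattern. The members and lists were chosen with earlier results of these data known. Tests among animals measure only the spread between pieces. The test among normal animals and the levels relative to endothelial and mural markers were added after the data were seen. Alternatives covered scaling, pseudocount, filter, pieces, blocks, voom, threshold and each animal left out. Apart from the filter alternatives, all of them kept the same 14687 genes. Loxl2, 1 gene of a list, was not analysed here.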

Additional observations from a re-analysis of the deposited data

How the results depend on the processing

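Col4a1, Col4a2, Col8a1, Col15a1 and Col18a1 were called higher under all 20 alternatives to the fit. Their differences ran from 4.35 to 5.94, 3.99 to 5.59, 3.35 to 5.17, 4.0 to 5.56 and 6.16 to 7.73. The highest came with library totals alone, which moved the median of all genes to 1.07 and the calls to 8353 higher and 1895 lower, against 4765 and 4553. Trimmed mean scaling on all reads moved the median to -0.30, with 3748 higher and 5904 lower. The count of members lower was 1 (Col4a3) with that scaling and by piece 2 alone, against 0; the cause was not tested. Members that differed among anomaly animals numbered 0, against 1, with library totals alone, with a pseudocount of 5, at a threshold of 0.01 and without piece 1 of anomaly animal 1, where animal 1 has 1 library and is assumed to vary like the others. With the animal as a random block and the piece number as a replicate block, 6 members were higher, Col8a2 joining them (adjusted p = 0.0173), but with reads summed per animal Col8a2 was not called (3.33, adjusted p = 0.130). The piece numbers set lettered pieces A of anomaly animals against B of normal ones. The groups are different animals, so the piece numbers do not pair them by origin. Deviations of piece 1 from the animal mean correlated between anomaly and normal animals at r from -0.11 to 0.15 across genes over 9 pairings. Whether pieces of the same number were handled together was not tested. Ratios without overlap numbered 3 to 5 over 11 alternatives, against 4. Values near 1 CPM are not resolved in piece 1 of anomaly animal 1.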

Other observations

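Collagens outside the basement membrane, vascular and fibrillar classes moved both ways. Of 6 tested, 3 were higher, 1 lower and 2 not called, where 32.4% of all tested genes were higher and 31.0% lower. With 6 genes, these counts do not set the class apart from all genes. Col7a1, the collagen of anchoring fibrils, had the lowest difference among them, at -2.99 ± 0.25 (adjusted p = 3.02e-04 by limma), with 7.08 ± 1.21 CPM in anomaly animals and 64.7 ± 16.4 CPM in normal animals (SD, n = 3). Col13a1, a transmembrane collagen of the neuromuscular junction, rose by 2.82 ± 0.58 (adjusted p = 0.00642 by limma), with 18.7 ± 14.9 CPM in anomaly animals and 1.28 ± 0.51 CPM in normal animals (SD, n = 3). Col28a1 rose by 2.60 ± 0.54, and Col17a1, a collagen of epithelial attachment, by 1.39 ± 0.47 (adjusted p = 0.00668 and 0.0398 by limma). Epithelial markers summed to between 0.916 and 26.9 CPM in anomaly libraries and between 1.14 and 5.75 CPM in normal libraries, with no marker called among 5 tested. Their part in the value of Col17a1 was not tested.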
